A study of Mus musculus with 9 samples.

Results

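Translation factors are the proteins that start and extend polypeptide chains on the ribosome, and their mRNAs were compared across hearts of mice with and without the mitochondrial protease OMA1. All genes whose listed name began with Eif1 to Eif6 or with Eef1 or Eef2 were taken, leaving out the Eif2ak kinases, which gave 64 genes of 13539 in the table. Of these, 58 were grouped by role as initiation or elongation factors or genes related to them. The other 6 were taken by name alone: 5 entries named Eif2c1 to Eif2c4 are Argonaute genes under older symbols, with Eif2c2 listed under 2 gene identifiers, and Eif4a-ps4 carries a pseudogene name. The values are deposited normalized counts, that is estimated reads per gene scaled to library size, and 59 of the 64 members reached a value of 10 in at least 3 of 9 libraries and were tested. Eef1e1, Eif2b3, Eif5a2, Eif4ebp3 and the second Eif2c2 entry lay below that minimum, with values from 0 to 12.3.

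There were 3 groups of 3 libraries, all from hearts of 12-week-old male mice on the C57BL/6JOlaHsd background. The first group was OMA1 knockout mice given isoproterenol, a β-adrenergic agonist, from minipumps at 10 mg/kg per day for 7 days (KO iso). The second was wild-type mice given the same treatment (WT iso). The third was OMA1 knockout mice described as non-treated (KO untreated), so the effects of pump and drug cannot be told apart. Wild-type hearts without treatment are not analysed here, which leaves no test of whether the response to isoproterenol differs by genotype. The labels do not give animal numbers, so p-values measure only the spread between these libraries.

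Initiation begins when eIF2 brings the initiator tRNA to the small ribosomal subunit and eIF4F, made of the cap-binding protein eIF4E, the scaffold eIF4G and the helicase eIF4A, brings the mRNA. Elongation then runs on eEF1A, which delivers aminoacyl-tRNA, and eEF2, which moves the ribosome along by a codon. Adult heart muscle is known to use a second form of eEF1A, encoded by Eef1a2, beside the widely expressed Eef1a1.

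Treated knockout hearts had more Eef1a1 and Eif4a1 mRNA and less Eef1a2 and Eif4g1 mRNA than untreated knockout hearts, and for that reason the 250 bases before their start sites are shown. The sequences were taken from RefSeq on GRCm38.p6 and are written 5′ to 3′ on the gene's strand, with capitals marking the E-box CACGTG and the cAMP response element core TGACG or its reverse complement CGTCA. Eef1a1 is read from chr9:78481725-78481974 on the minus strand, Eef1a2 from chr2:181157016-181157265 on the minus strand, Eif4a1 from chr11:69672424-69672673 on the minus strand and Eif4g1 from chr16:20672477-20672726 on the plus strand.
Eef1a1: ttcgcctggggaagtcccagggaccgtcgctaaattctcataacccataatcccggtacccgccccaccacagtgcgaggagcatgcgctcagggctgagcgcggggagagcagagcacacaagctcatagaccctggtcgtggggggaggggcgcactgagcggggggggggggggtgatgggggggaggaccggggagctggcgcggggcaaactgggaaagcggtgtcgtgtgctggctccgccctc
Eef1a2: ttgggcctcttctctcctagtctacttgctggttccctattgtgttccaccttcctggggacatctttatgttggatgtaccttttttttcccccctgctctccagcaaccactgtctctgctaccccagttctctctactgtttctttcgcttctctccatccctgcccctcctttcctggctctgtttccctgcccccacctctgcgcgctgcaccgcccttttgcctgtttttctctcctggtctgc
Eif4a1: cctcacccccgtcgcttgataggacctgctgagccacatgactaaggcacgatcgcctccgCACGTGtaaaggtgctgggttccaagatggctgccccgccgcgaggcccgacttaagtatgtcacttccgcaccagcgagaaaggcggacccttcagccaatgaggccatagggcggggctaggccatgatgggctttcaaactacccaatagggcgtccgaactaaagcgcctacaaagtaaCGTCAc
Eif4g1: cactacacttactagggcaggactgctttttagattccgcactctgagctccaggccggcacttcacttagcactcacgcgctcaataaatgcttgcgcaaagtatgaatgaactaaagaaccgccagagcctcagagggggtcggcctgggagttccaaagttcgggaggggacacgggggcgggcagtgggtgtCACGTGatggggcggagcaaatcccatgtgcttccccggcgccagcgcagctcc
Neither eEF1A window held any of these letters, while the Eif4a1 window held an E-box 189 bases before the start and a CGTCA 6 bases before it, and the Eif4g1 window an E-box 54 bases before it. Promoter windows were found for 48 member genes. The E-box letters, which read the same on both strands, stood in 11 of them (22.9%), against 10.6% of the 6679 tested genes with a window and 6.86% of all 27025 genes in the RefSeq table. The TGACG site on either strand stood in 24 members (50%), against 32.4% of tested genes and 19.8% of all genes, and the full element TGACGTCA in 0 members, against 3.11% of tested genes. TATAAA on the gene's strand stood in 4 members (8.33%), against 4.58% of tested genes and 8.94% of all genes. A gene with several listed starts was counted once if any of its windows held the letters, and a match is a description of the sequence only.

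The recovered depth was 6.93e+06 to 1.22e+07 reads per library. Oma1 itself had 6.74, 5.73 and 6.25 normalized counts in KO iso hearts, 22.0, 19.9 and 17.7 in WT iso hearts and 6.52, 9.10 and 6.63 in KO untreated hearts. Every knockout library was below every wild-type library. KO iso library 2 and WT iso library 3 stood apart from the other libraries of their groups, with a chi-square per gene of 8.12 to 10.9 against them, where other pairs within a group gave 2.25 to 3.66. Transcripts of the mitochondrial genome took 38.2 to 42.5% of the signal in KO iso libraries, 36.7 to 37.3% in WT iso libraries and 33.9 to 34.6% in KO untreated libraries, with the highest share in KO iso library 2. The listed values summed to 945508 to 1.02e+06 per library, highest in KO iso library 2, and so not to a fixed total. Rescaling by the signal without mitochondrial genes moved the median log2 difference of all genes by 0.05 to 0.10. How far the mitochondrial share bears on other genes was not tested beyond this. Members took 0.737 ± 0.0378% of the signal in KO iso, 0.788 ± 0.0197% in WT iso and 0.806 ± 0.00944% in KO untreated hearts (SD, n = 3 each). Leaving mitochondrial transcripts out of the total, the shares were 1.23 ± 0.0186% in KO iso, 1.25 ± 0.0281% in WT iso and 1.22 ± 0.00902% in KO untreated hearts.

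Marker genes of several other cell types also differed between the groups, while those of others overlapped. Summed normalized counts of 7 endothelial markers were 1746 to 2114 in KO iso, 1346 to 1485 in WT iso and 941 to 1043 in KO untreated libraries. The 4 atrial markers summed to 87.8 to 119 in KO iso, 53.5 to 844 in WT iso and 1111 to 2484 in KO untreated libraries. Nearly all of the sums in treated libraries was Nppa, at 84.9 to 117 in KO iso and 51.8, 86.0 and 842 in WT iso libraries. The atrial gene Sln was listed at 0 to 0.0811 in treated libraries of either genotype, against 53.7 to 134 in KO untreated ones. Myl7 lay at 0 to 0.417 and Myl4 at 1.06 to 2.59 in treated libraries, against 131 to 279 and 186 to 454 in KO untreated ones. Markers of dividing cells summed to 83.8 to 162 in KO iso, 89.4 to 125 in WT iso and 9.78 to 14.1 in KO untreated libraries. Fibroblast markers summed to 1551 to 1624 in KO iso, to 1448 to 2917 in WT iso, with the highest sum in library 3, and to 947 to 1029 in KO untreated libraries. Smooth muscle and pericyte markers summed to 958 to 1127 in KO iso, 978 to 1133 in WT iso and 595 to 629 in KO untreated libraries. Red cell markers summed to 1007 to 4371 in KO iso, with the highest sum in library 2, to 1903 to 2534 in WT iso and to 1646 to 3891 in KO untreated libraries. Macrophage markers summed to 106 to 128 in KO iso, 94.7 to 127 in WT iso and 76.2 to 109 in KO untreated libraries. Acta1, taken as a skeletal muscle marker, had 145 to 208 in KO iso, 137 to 499 in WT iso and 224 to 310 in KO untreated libraries. Ventricular myocyte markers, abundant in every library, summed to 36227 to 38893 in KO iso, 32197 to 37654 in WT iso and 39545 to 42940 in KO untreated libraries. In bulk tissue, fewer cells of a type and less RNA per cell cannot be told apart, and the part of these shifts in the results below was not tested.

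Per kilobase of the longest annotated transcript, the levels in KO iso hearts were led by Eef1a1 at 570.2 normalized counts, followed by Eif1 at 309, Eef2 at 295, Eef1a2 at 239.9 and Eif5a at 119. Eef1a1, Eef1a2 and Eef2 together held 32.7% of all member signal over the 9 libraries, the 11 genes of eIF4F and its helpers 28.1% and the 14 eIF3 subunits 12.7%.

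The first comparison set KO iso against WT iso hearts and asks how hearts under the same treatment differ with genotype. Of the 59 members tested, 3 were higher and 10 lower in KO iso hearts at an adjusted p under 0.05 (limma on log2(value + 1), Benjamini-Hochberg over all 8543 genes), which is 22.0% of them. Over all genes 27.8% passed, 12.0% higher and 15.9% lower, so members passed no more often than genes in general. The median log2 difference was -0.05 over the members and -0.01 over all genes. Among the 58 genes with a factor role, 54 were tested and 3 were higher and 9 lower. The 13 members that passed were spread over 7 of the role groups, while eIF2B, eEF2 with its kinase, and eIF5A with eIF6 had none.

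**Figure D1:**
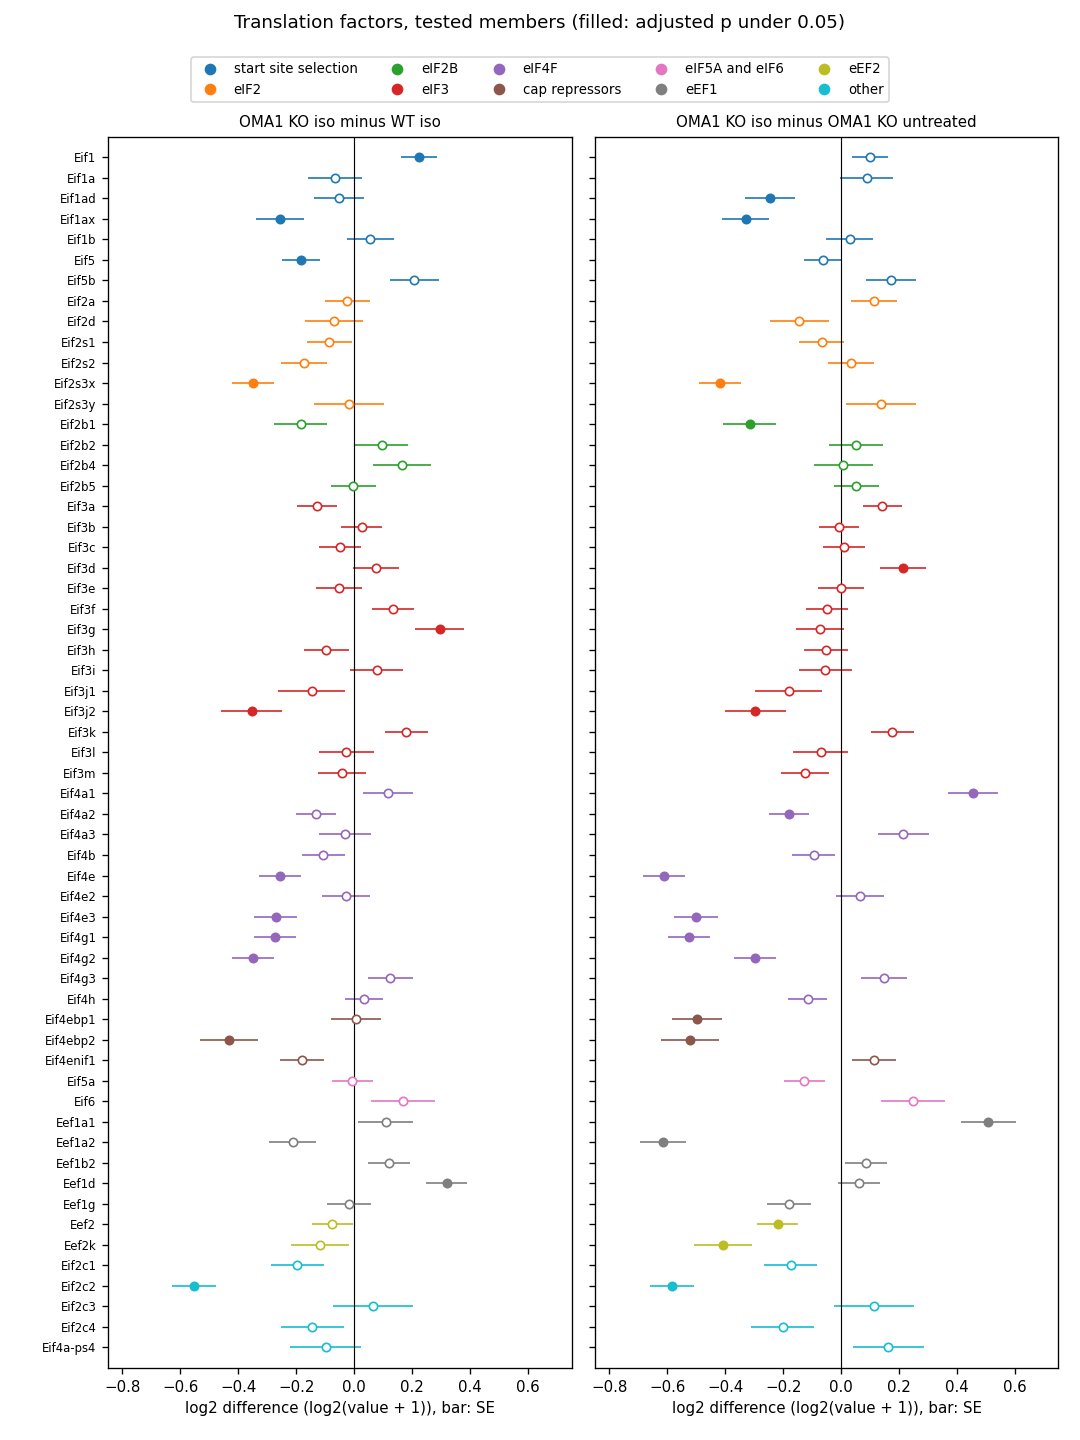
Log2 differences with SE for the 59 tested members, grouped by role, for KO iso minus WT iso (left) and KO iso minus KO untreated (right), with filled points where the adjusted p was under 0.05. On the left 3 members were higher and 10 lower, and on the right 3 higher and 16 lower.

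Among the 11 genes of eIF4F, its relatives and its helpers, 4 were lower and 0 higher (36.4%). Over all genes 15.9% were lower and 27.8% were called in either direction. After the correction for transcript length and GC content described below, 1 was lower, Eif4g1, and 1 higher, Eif4g3. Eif4g1, the eIF4G scaffold, had 279, 261 and 273 normalized counts in KO iso hearts against 342, 345 and 297 in WT iso hearts. The groups did not overlap, and WT iso library 3 lay nearest to the knockout values. The log2 difference was -0.27 ± 0.07 (SE, limma adjusted p = 0.0148). Eif4g2, an eIF4G relative that lacks the eIF4E-binding site, had 770.3, 686 and 801 in KO iso hearts against 955, 968 and 947 in WT iso hearts. All knockout libraries were below all wild-type ones, the lowest being KO iso library 2, and the log2 difference was -0.35 ± 0.07 (limma adjusted p = 0.00442). Eif4e, the cap-binding protein, had 81.1, 75.1 and 80.3 in KO iso hearts against 88.4, 96.0 and 99.1 in WT iso hearts, a log2 difference of -0.26 ± 0.07 (limma adjusted p = 0.019). Eif4e3, another cap-binding protein of that family, averaged 36.0 ± 1.60 in KO iso and 43.7 ± 2.92 in WT iso hearts (SD, n = 3 each) and fell by 0.27 on the log2 scale (limma adjusted p = 0.0181). The helicases Eif4a1 and Eif4a2 and the helicase helpers Eif4b and Eif4h were among the 7 that did not pass.

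Of the repressors of eIF4E, Eif4ebp2 had 18.1, 14.1 and 17.8 normalized counts in KO iso hearts against 24.1, 22.5 and 21.5 in WT iso hearts. It had the largest fall of any member with a factor role, -0.43 ± 0.10 on the log2 scale (limma adjusted p = 0.00754), and the groups did not overlap. Eif4ebp1, the better-known target of the growth kinase mTORC1, had 30.1, 25.7 and 26.4 in KO iso and 27.1, 26.2 and 28.4 in WT iso hearts. The WT iso values lay inside the KO iso range. Eif4enif1, which carries eIF4E into the nucleus, had 32.95, 35.9 and 34.1 in KO iso and 37.7, 41.5 and 37.8 in WT iso hearts and did not pass.

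**Figure D2:**
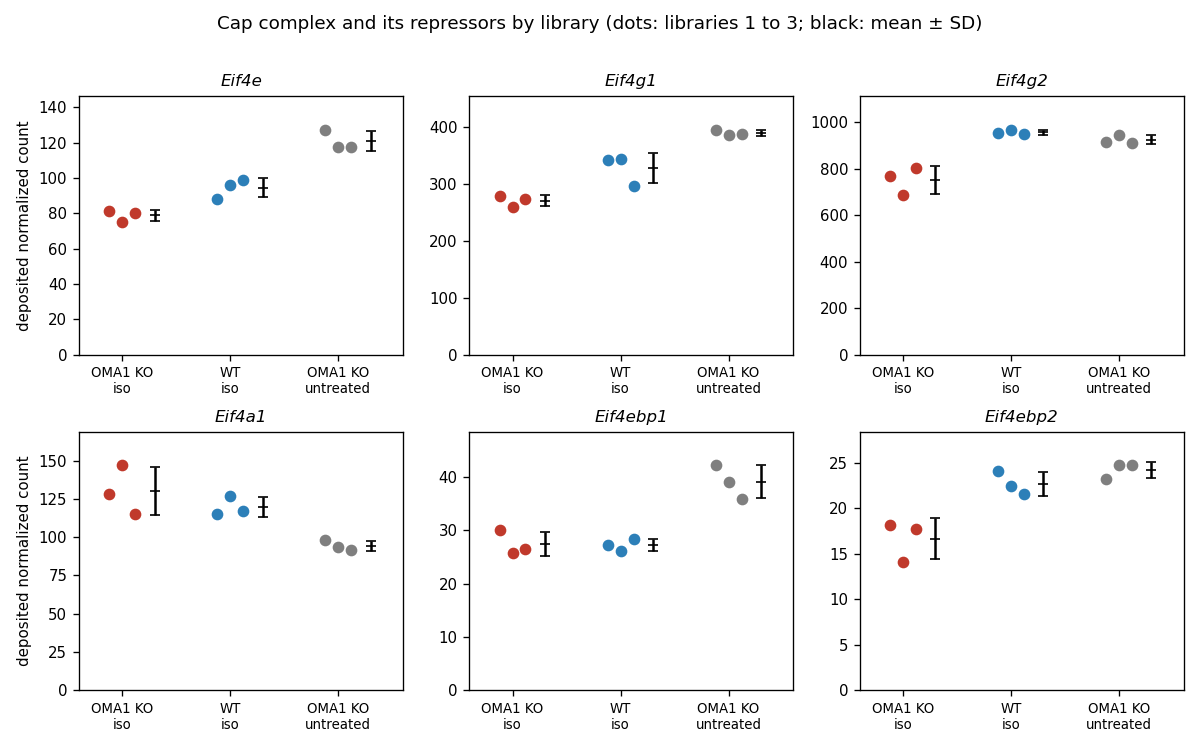
Deposited normalized counts of the cap-complex genes Eif4e, Eif4g1 and Eif4a1, the eIF4G relative Eif4g2 and the repressors Eif4ebp1 and Eif4ebp2 in each library. Mean ± SD is in black and each axis starts at 0. Eif4g2 and Eif4ebp2 are lower in KO iso than in the other groups, while Eif4ebp1 is at 25.7 to 30.1 in both treated groups and 35.9 to 42.2 in KO untreated libraries.

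Among factors that choose the start codon, Eif1, which keeps start codon choice strict, was higher, and Eif1ax and Eif5 were lower. Eif1 had 418, 403 and 405 normalized counts in KO iso hearts against 345, 359.7 and 343 in WT iso hearts. Its log2 difference was 0.22 ± 0.06 (limma adjusted p = 0.0177), with no overlap between the groups. Eif1ax, the X-linked gene of eIF1A, averaged 50.04 ± 3.38 in KO iso and 59.97 ± 4.56 in WT iso hearts and fell by 0.26 on the log2 scale (limma adjusted p = 0.0341). Eif5, the GTPase activator of eIF2, averaged 139 ± 6.77 in KO iso and 158 ± 2.55 in WT iso hearts and fell by 0.19 (limma adjusted p = 0.0481), a call that was lost with any 1 of the 9 libraries left out. Eif1 had 387, 378 and 379 in KO untreated hearts, between the treated groups.

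Of the 6 genes grouped here under eIF2, only the X-linked gamma subunit gene Eif2s3x passed. It averaged 64.1 ± 3.84 normalized counts in KO iso and 81.9 ± 2.19 in WT iso hearts, a log2 difference of -0.35 ± 0.07 (limma adjusted p = 0.00476). Its Y-linked partner Eif2s3y averaged 52.6 ± 3.35 in KO iso and 53.3 ± 4.89 in WT iso hearts. Eif2s1, the alpha subunit that stress kinases phosphorylate, had 35.0, 31.3 and 31.9 in KO iso against 33.7, 35.7 and 34.8 in WT iso hearts, with overlapping groups. Eif2b5, the catalytic subunit of the exchange factor eIF2B, had 43.6, 44.5 and 47.5 in KO iso against 47.5, 45.5 and 43.0 in WT iso hearts, also overlapping. In KO untreated hearts Eif2s1 had 35.4, 31.9 and 35.8 and Eif2b5 had 47.1, 42.2 and 41.6, within or close to the treated ranges.

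The eIF3 complex, the largest initiation factor, was close in level between the groups. Its 14 genes summed to 964 ± 19.5 normalized counts in KO iso, 981 ± 26.6 in WT iso and 967 ± 5.58 in KO untreated hearts (SD, n = 3 each). In this comparison 1 was higher and 1 lower. Eif3g, an RNA-binding subunit, had 32.8, 34.8 and 33.4 in KO iso against 27.1, 28.9 and 25.9 in WT iso hearts, a log2 difference of 0.29 ± 0.08 (limma adjusted p = 0.0209). In KO untreated hearts it had 32.1, 35.5 and 39.1, all above WT iso. Eif3j2, which encodes a loosely bound subunit, had 34.1, 29.3 and 29.4 in KO iso against 41.5, 40.7 and 37.0 in WT iso hearts, a difference of -0.35 ± 0.11 (limma adjusted p = 0.0252). Its near-copy Eif3j1 averaged 33.8 ± 3.24 in KO iso and 37.5 ± 2.96 in WT iso hearts and did not pass, and reads may have been divided between them.

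**Figure D3:**
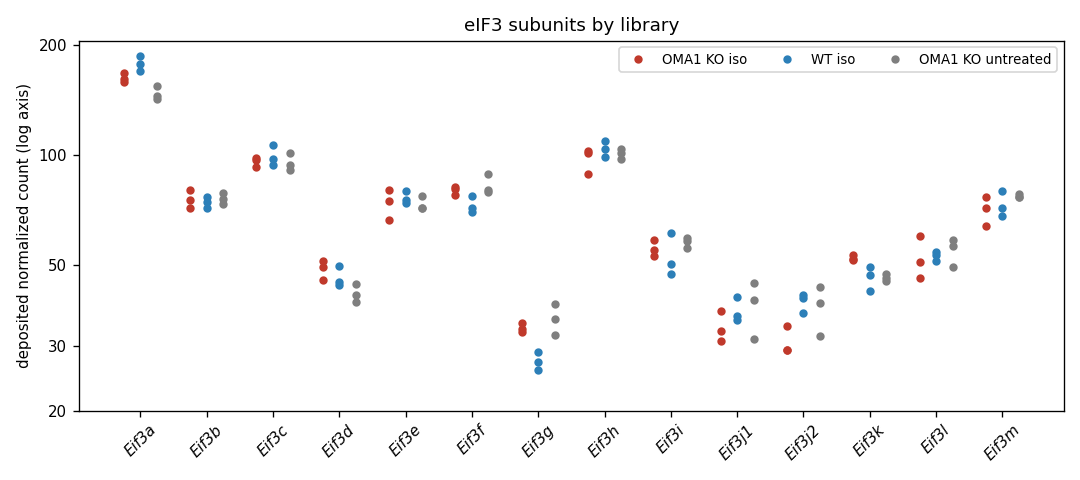
Deposited normalized counts of the 14 eIF3 subunit genes in each library on a log axis, with KO iso, WT iso and KO untreated libraries side by side. Eif3g lies at 32.8 to 34.8 in KO iso and 25.9 to 28.9 in WT iso libraries, and most other subunits overlap between the groups.

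In the elongation machinery, Eef1d, a subunit of the complex that reloads eEF1A with GTP, had the largest rise of any tested member. It had 92.3, 92.9 and 85.8 normalized counts in KO iso hearts against 76.0, 73.2 and 67.6 in WT iso hearts, and 89.7, 85.1 and 84.6 in KO untreated hearts. The WT iso libraries were the lowest of the 9, and the log2 difference between the treated groups was 0.32 ± 0.07 (limma adjusted p = 0.00685). Its partners Eef1b2 and Eef1g did not pass, nor did Eef1a1, Eef1a2, Eef2 or Eef2k. Eif5a, which helps ribosomes past stretches that stall, had 172, 164 and 175 in KO iso against 167, 185 and 162 in WT iso hearts. Eif6, which keeps the large subunit apart until it is needed, had 19.6, 19.8 and 19.3 in KO iso against 16.5, 20.5 and 15.3 in WT iso hearts. Both pairs of groups overlapped. In KO untreated hearts Eif5a had 192, 186 and 181 and Eif6 had 17.9, 16.6 and 14.6.

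Of the members taken by name alone, the Argonaute gene listed as Eif2c2 (Ago2 in GENCODE), which acts in gene silencing by small RNAs, had the largest fall of all. It had 36.4, 31.7 and 34.2 normalized counts in KO iso hearts against 53.3, 49.7 and 48.5 in WT iso hearts. Its log2 difference was -0.55 ± 0.08 (limma adjusted p = 0.00058), and KO untreated hearts had 49.9, 52.0 and 52.6, close to WT iso. The other Argonaute genes tested, Eif2c1, Eif2c3 and Eif2c4, did not pass. The second Eif2c2 entry, below the minimum for testing, lay the other way, with 4.87, 5.11 and 4.87 in KO iso hearts, 2.66, 1.96 and 3.27 in WT iso hearts and 2.90, 2.58 and 1.66 in KO untreated hearts.

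The differences between KO iso and WT iso hearts went with transcript length over the whole table. The median log2 difference was 0.12 over the 2124 genes with the shortest transcripts and -0.12 over the 2120 with the longest, in 4 classes of length. Of the members, 2 of 23 in the shortest class were higher and 0 lower, and in the second class 1 of 15 was higher and 2 lower. In the third class 3 of 7 were lower and in the longest 5 of 13, with 0 higher in either. The share of all genes called was not counted by class of length. After a correction for the length and base composition of transcripts, library by library, 18.5% of all genes passed, 8.99% higher and 9.52% lower, and of 58 members 3 were higher and 5 lower. Eif4ebp2, Eif4g1, Eif2s3x, Eif2c2 and Eef1d passed both with and without the correction. Eif4e, Eif4e3, Eif4g2, Eif1ax, Eif5, Eif3j2, Eif1 and Eif3g passed only without it. Eef1a2, at -0.43 (limma adjusted p = 0.00403), Eif5b, at 0.40 (limma adjusted p = 0.00773), and Eif4g3, at 0.24 (limma adjusted p = 0.04), passed only with it. Eif5b encodes the GTPase that joins the ribosomal subunits. The value of Eif4g2 turned on which transcript stands for it: -0.15 (limma adjusted p = 0.104) with the longest transcript, and -0.58 (limma adjusted p = 0.000832) with the APPRIS principal transcript, a 742-base fragment. The other comparisons also went with length. From the shortest to the longest class, the median went from 0.05 to -0.07 for KO iso against KO untreated. For WT iso against KO untreated it went from -0.06 to 0.06. The part of length in the uncorrected differences was not tested beyond the length and GC correction.

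**Figure D4:**
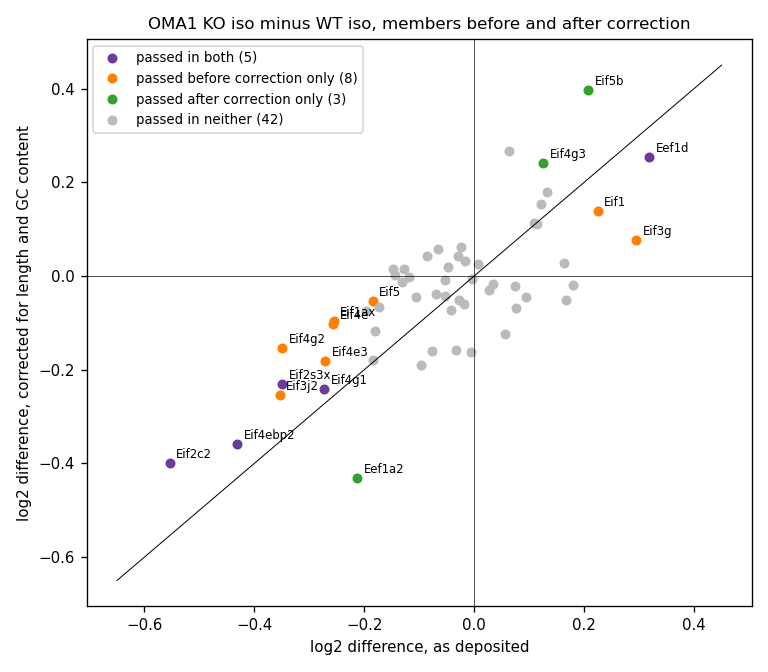
Log2 difference, KO iso minus WT iso, of 58 members as deposited (horizontal) and after the length and GC correction (vertical), with the line of equality. Of the members, 5 passed the adjusted p of 0.05 in both, 8 before the correction only, 3 after it only and 42 in neither.

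Which members passed also turned on single libraries. Eif4ebp2, Eif4g2, Eif2s3x, Eif2c2 and Eef1d, 5 of the 13, passed with each of the 9 libraries left out in turn. The share of all called genes that did so was not counted. Without KO iso library 2, which had the highest mitochondrial share, 5 members were lower, and 5 were lower without WT iso library 1 or without WT iso library 2. Fewer of all genes were lower as well. These were 802 of 8446, 902 of 8511 and 971 of 8506 in the same order, against 1356 of 8543 with every library.

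The second comparison set KO iso against KO untreated hearts, within a single genotype, and shares the KO iso libraries with the first. Of 59 members, 3 were higher and 16 lower in KO iso hearts, 32.2% of them. Over all genes 51.4% passed, 23.9% higher and 27.4% lower, so a smaller share of members than of genes in general passed. The median log2 difference was -0.05 over the members and -0.02 over all genes. The counts depended on the scaling, over all genes as well as over the members. Rescaled by the signal without mitochondrial genes, 14 members were higher and 11 lower, beside 2834 and 1669 of all 8543 genes. After cyclic loess 9 members were higher and 13 lower, beside 2192 and 2235 of all genes. As deposited, 2043 and 2345 of all genes were higher and lower. In the first comparison the scale without mitochondrial genes gave 5 members higher and 8 lower (1390 and 1065 of all genes). Cyclic loess gave 7 higher and 7 lower there (1158 and 1202 of all genes).

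The 2 eEF1A genes stood at opposite ends. Eef1a1 had 1021, 1049.6 and 998 normalized counts in KO iso hearts against 718, 663 and 779.9 in KO untreated hearts. All treated libraries were above all untreated ones, and the log2 difference was 0.51 ± 0.10 (limma adjusted p = 0.000649). Eef1a2 had 533, 469.7 and 498 in KO iso against 737, 797 and 764 in KO untreated hearts, a log2 difference of -0.62 ± 0.08 (limma adjusted p = 4.1e-05), again with no overlap. In WT iso hearts, Eef1a1 had 844, 915 and 1106 and Eef1a2 had 603, 617 and 522. Library 3 of that group was the highest for Eef1a1 and the lowest for Eef1a2.

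Expressed as a share of both genes' normalized counts, Eef1a2 made up 34.3, 30.9 and 33.3% in KO iso libraries, 41.6, 40.3 and 32.1% in WT iso libraries and 50.6, 54.6 and 49.5% in KO untreated libraries. The KO iso mean was 32.8 ± 1.73%, the WT iso mean 38.0 ± 5.18% and the KO untreated mean 51.6 ± 2.69% (SD, n = 3 each). An exact two-sided permutation test gave p = 0.1 for KO iso against KO untreated and for WT iso against KO untreated, the smallest that 3 against 3 allows. For KO iso against WT iso the exact permutation test gave p = 0.3, with WT iso library 3 inside the KO iso range. Many processed copies of Eef1a1 exist in the mouse genome, and how the authors' counting treated reads shared with them is not given in the sources used here.

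**Figure D5:**
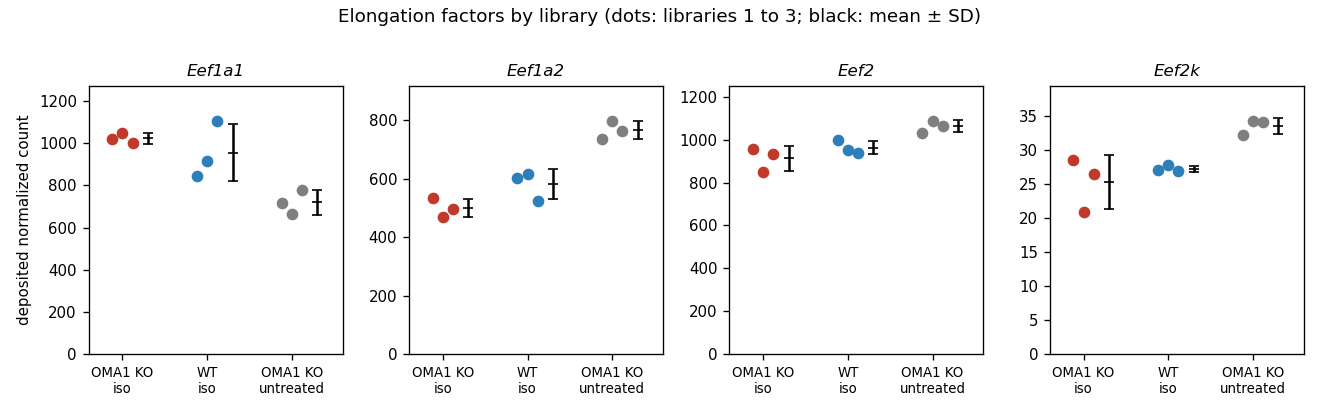
Deposited normalized counts of Eef1a1, Eef1a2, Eef2 and Eef2k in each library, with mean ± SD in black and each axis starting at 0. Eef1a1 is at 998 or above in every KO iso library and at 779.9 or below in every KO untreated library, and Eef1a2 runs the other way.

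The elongation factor eEF2 and its inhibitory kinase were both lower. Eef2 had 958, 848 and 933 normalized counts in KO iso hearts against 1032, 1088 and 1065 in KO untreated hearts, a log2 difference of -0.22 ± 0.07 (limma adjusted p = 0.0191). With the signal without mitochondrial genes as the scale it was -0.11 (limma adjusted p = 0.144), and after cyclic loess -0.0054 (limma adjusted p = 0.944). Eef2k had 28.5, 20.8 and 26.4 in KO iso against 32.3, 34.3 and 34.1 in KO untreated hearts, a difference of -0.41 ± 0.10 (limma adjusted p = 0.00402). KO iso library 2 was the lowest of the 9 for both genes. WT iso hearts had 996, 950.2 and 939 for Eef2 and 27.1, 27.8 and 26.9 for Eef2k.

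Of the 11 genes of eIF4F, its relatives and its helpers, 5 were lower and 1 higher (54.5%), a share close to the 51.4% of all genes called. Eif4e fell to 78.9 ± 3.25 normalized counts in KO iso hearts, against 121 ± 5.65 in KO untreated hearts (127, 118 and 118), with no overlap. Its log2 difference of -0.61 ± 0.07 (limma adjusted p = 1.99e-05) was close to that of Eef1a2. Eif4g1 averaged 271 ± 9.34 in KO iso and 390.3 ± 5.13 in KO untreated hearts (396, 387 and 388), a difference of -0.53 ± 0.07 (limma adjusted p = 6.35e-05). Eif4e3 fell by 0.50 (limma adjusted p = 0.000123), Eif4g2 by 0.30 (limma adjusted p = 0.00373) and the helicase gene Eif4a2 by 0.18 (limma adjusted p = 0.044) on the log2 scale. Eif4g2 had 916, 945 and 908 in KO untreated libraries. The related helicase gene Eif4a1 was higher, with 128, 147 and 115 in KO iso against 97.8, 93.5 and 91.3 in KO untreated hearts, 0.46 ± 0.09 (limma adjusted p = 0.000684). Eif4a1 has near-identical pseudogene copies, so its reads may be shared.

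Of the 3 repressors of eIF4E tested, Eif4ebp1 and Eif4ebp2 were lower, and Eif4enif1 was at 0.11 on the log2 scale (limma adjusted p = 0.231). Eif4ebp1 averaged 27.4 ± 2.31 normalized counts in KO iso and 39.1 ± 3.12 in KO untreated hearts, where its libraries had 42.2, 39.1 and 35.9. The log2 difference was -0.50 ± 0.09 (limma adjusted p = 0.000365). Eif4ebp2 averaged 16.7 ± 2.25 in KO iso and 24.2 ± 0.885 in KO untreated hearts, with 23.2, 24.7 and 24.7 in KO untreated libraries, and the difference was -0.52 ± 0.10 (limma adjusted p = 0.000711). Eif4ebp1 was at a like level in both treated groups, whereas Eif4ebp2 was at a like level in WT iso and KO untreated hearts.

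Among the other groups, Eif2s3x averaged 64.1 ± 3.84 in KO iso against 86.0 ± 4.84 in KO untreated hearts, -0.42 ± 0.07 on the log2 scale (limma adjusted p = 0.000391), and was the eIF2 gene that passed. Of the 4 eIF2B genes tested, Eif2b1, the alpha subunit, fell by 0.32 (limma adjusted p = 0.0107). Of the genes grouped here under start site selection, Eif1ax fell by 0.33 (limma adjusted p = 0.00459) and Eif1ad by 0.25 (limma adjusted p = 0.027). Of the 14 eIF3 genes, Eif3d had 45.5, 51.4 and 49.4 in KO iso against 39.7, 44.5 and 41.4 in KO untreated hearts, a log2 difference of 0.21 ± 0.08 (limma adjusted p = 0.0376). In WT iso hearts it had 44.9, 49.7 and 44.2. Eif3j2, at 39.4, 32.1 and 43.7 in KO untreated hearts, fell by 0.30 (limma adjusted p = 0.0317). The Argonaute gene listed as Eif2c2 averaged 34.1 ± 2.35 in KO iso against 51.5 ± 1.44 in KO untreated hearts, -0.58 ± 0.08 (limma adjusted p = 3.93e-05).

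After the length and GC correction 52.4% of all genes passed, 24.8% higher and 27.6% lower, and 17 of the 19 members that passed did so again, the exceptions being Eif3j2 and Eif4a2. A further 5 passed only with it, Eif3a, Eif4g3 and Eif5b higher and Eif3m and Eif5a lower, which gave 6 higher and 16 lower of 58. With each library left out in turn, 13 of the 19 passed every time. Eef2, Eif4a2, Eif2b1, Eif1ad, Eif3j2 and Eif3d did not. The share of all called genes that passed again, corrected or with each library left out, was not counted.

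Set side by side, 9 members were lower in KO iso hearts in both comparisons: Eif4e, Eif4e3, Eif4g1, Eif4g2, Eif4ebp2, Eif2s3x, Eif1ax, Eif3j2 and Eif2c2. Over all genes 11.9% were lower in both, against 15.3% of the members tested. Both comparisons use the KO iso libraries, so this count is a description. A further 36 members passed in neither (61.0%, against 40.8% of all genes), among them 11 of the 14 eIF3 genes.

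The third comparison set WT iso against KO untreated hearts, which differ in genotype and treatment together. Of 59 members, 5 were higher and 8 lower in WT iso hearts (22.0%), where 33.2% of all genes passed, 16.4% higher and 16.9% lower. Eef1a1 was higher by 0.40 ± 0.10 on the log2 scale (limma adjusted p = 0.00612) and Eif4a1, with 115, 127 and 117 in WT iso hearts, by 0.34 ± 0.09 (limma adjusted p = 0.00846). Eif4enif1, at 33.2, 31.6 and 30.1 in KO untreated hearts, was higher by 0.29 (limma adjusted p = 0.00985), Eif3a by 0.27 (limma adjusted p = 0.00819) and Eif4a3 by 0.25 (limma adjusted p = 0.0462). Eif3a, the scaffold subunit of eIF3, had 186, 169 and 178 in WT iso against 155, 145 and 142 in KO untreated hearts, and 162, 168 and 158 in KO iso hearts. Eif4ebp1 fell by 0.50, Eef1a2 by 0.40, Eif3g by 0.37, Eif4e by 0.35, Eef2k by 0.29, Eef1d by 0.26, Eif4g1 by 0.25 and Eif4e3 by 0.23, with limma adjusted p between 0.000714 and 0.0391. With the length and GC correction 30.7% of all genes passed, 14.7% higher and 16.0% lower, and 10 of the 13 members passed again, while Eif3a, Eif3g and Eef1d did not, and Eif3d and Eif3f passed only with it. The log2 difference of Eef1a2 was then -0.23 (limma adjusted p = 0.0356). The share of all called genes that passed again was not counted. Without KO untreated library 1, 4 members were lower, and 5 were lower without KO untreated library 2 or without WT iso library 3. Over all genes 986 of 8435, 920 of 8448 and 1107 of 8475 were then lower, against 1440 of 8543 with every library.

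Other genes of the translation pathway were counted in the same fits. Of 9 genes around eIF2 phosphorylation, its kinases, phosphatase subunits and downstream factors, 7 were higher in KO iso than in KO untreated hearts, where 23.9% of all genes were, and 2 were higher in KO iso than in WT iso hearts, where 12.0% of all genes were. Atf4, a transcription factor translated when eIF2 is phosphorylated, averaged 71.9 ± 4.71 normalized counts in KO iso, 61.7 ± 0.498 in WT iso and 46.3 ± 2.72 in KO untreated hearts. It was higher by 0.63 ± 0.07 on the log2 scale against KO untreated (limma adjusted p = 2.06e-05) and by 0.22 ± 0.07 against WT iso (limma adjusted p = 0.0447). Ddit3, which encodes the stress factor CHOP, averaged 14.2 ± 0.609 in KO iso, 10.03 ± 1.18 in WT iso and 10.05 ± 0.520 in KO untreated hearts, and its difference from WT iso was 0.47 ± 0.11 (limma adjusted p = 0.00961). After the length and GC correction neither passed between the treated groups, while 7 of the 9 genes again passed against KO untreated.

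Of 15 tested genes on the mTORC1 list, 7 were lower in KO iso than in KO untreated hearts, where 27.4% of all genes were, and 5 were lower in KO iso than in WT iso hearts, where 15.9% of all genes were. Rptor, the raptor subunit of mTORC1, averaged 29.7 ± 0.843 in KO iso, 34.7 ± 2.12 in WT iso and 39.5 ± 1.63 in KO untreated hearts. Deptor, an inhibitor of mTOR, averaged 11.3 ± 1.79 in KO iso, 15.03 ± 1.45 in WT iso and 19.4 ± 0.833 in KO untreated hearts. Against KO untreated the log2 difference of Rptor was -0.40 ± 0.08 (limma adjusted p = 0.000664) and that of Deptor -0.74 ± 0.11 (limma adjusted p = 0.000157). The list also holds Pdk1, which in mouse names a pyruvate dehydrogenase kinase and not a member of this pathway. It was among the lower genes in both comparisons. After the length and GC correction 8 were lower against KO untreated, but against WT iso Mtor, Rptor, Deptor and Tsc1 no longer passed and Pdk1 was the 1 that did.

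Of 8 tested translation factors of mitochondria, 6 were lower in KO iso than in KO untreated hearts (27.4% of all genes) and 2 were lower in KO iso than in WT iso hearts (15.9% of all genes). Corrected for length and GC content, these counts were 5, without Mtif3, and 1, without Mtif2. Gfm1, the mitochondrial elongation factor G, averaged 123 ± 12.8 in KO iso, 154 ± 9.60 in WT iso and 165 ± 2.06 in KO untreated hearts. It fell by 0.43 against KO untreated (limma adjusted p = 0.000786) and by 0.33 against WT iso (limma adjusted p = 0.0112). Of 11 poly(A)-binding and other helper genes, 2 were higher and 3 lower against KO untreated (23.9% and 27.4% of all genes), where Pabpc1 was higher by 0.45 (limma adjusted p = 0.00226) and Pabpc4 fell by 0.46 (limma adjusted p = 0.000512). Against WT iso 3 of them were lower (15.9% of all genes). Once corrected, none of these 3, Paip2b, Ddx3x and Abce1, passed, and Paip1 was higher by 0.28 (limma adjusted p = 0.0218), while against KO untreated 3 were higher and 2 lower. Of 4 tested termination and ribosome rescue genes, 1 was higher and 2 were lower against WT iso (12.0% and 15.9% of all genes) and 1 was higher and 1 lower against KO untreated (23.9% and 27.4% of all genes). Gspt1, the release factor eRF3, fell by 0.41 against WT iso (limma adjusted p = 0.00224). In the corrected values Gspt1 was the 1 of these genes that passed against WT iso, while Pelo and Etf1 did not, and against KO untreated 2 were lower and 0 higher. Dph3, of the pathway that modifies eEF2, and Dohh, of the pathway that modifies eIF5A, had limma adjusted p of 0.883 and 0.123 against WT iso and of 0.926 and 0.614 against KO untreated hearts.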

How the data were processed

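Heart RNA was made into TruSeq libraries, per the labels' protocols. The deposited values are the signal unit here: RSEM expected counts that the authors normalized to library size. Cutadapt, RSEM 1.17, limma and GRCm38 are named in the submitters' processing notes; neither aligner nor settings are given there. Within a tolerance of 0.02, 100% of values were whole multiples of 1 step per library, so whole reads were recovered for edgeR and DESeq2.

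Values were taken as log2(value + 1), which understates the change of low genes. The 8543 genes that reached 10 in 3 or more of the 9 libraries were fitted together with limma 3.58.1 in R 4.3.3, with a mean-variance trend and 1 mean per group. P-values are two-sided and Benjamini-Hochberg adjusted over the genes tested in a comparison. No p was adjusted over the members alone. Replicate numbers were not used to pair the libraries in this fit. Libraries of a group all differed by more than sampling noise.

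Positions, lengths and GC content came from GENCODE M21, which held 13385 of the listed IDs. Length is that of the longest basic transcript. It replaced the APPRIS principal transcript after the results were seen, because that gave Eif4g2 a fragment. The correction removes from each library a trend in length and GC content, by natural splines with 5 degrees of freedom (8494 genes).

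The members and lists were chosen with earlier results of these data known. Values in every library are given for the 4 largest rises and 4 largest falls that passed with no overlap in each comparison, and for fixed genes: Eef1a1, Eef1a2, Eef2, Eef2k, Eif2s1, Eif2b5, Eif3a, Eif4e, Eif4g1, Eif4ebp1, Eif4ebp2, Eif5a and Eif6. Alternatives covered the pseudocount, filter, scaling, form of fit, threshold, replicate block, edgeR 4.0.16, DESeq2 1.42.0, length and GC content, and each library left out. The pipeline was tested on simulated data.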

Additional observations from a re-analysis of the deposited data

How the results depend on the processing

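Counts of members moved with the processing. Those of all genes moved as well, but in proportion less under several settings, such as cyclic loess. At a threshold of 0.01, for example, 358 of all 8543 genes were higher and 601 lower for KO iso against WT iso. As reported these were 1023 and 1356. KO iso against WT iso, with 3 higher and 10 lower as reported, gave 7 higher after cyclic loess, 5 higher on the scale without mitochondrial genes, and 1 higher and 4 lower at a threshold of 0.01. Of all genes 1158 were higher after cyclic loess and 1390 without mitochondrial genes. This comparison gave 5 lower after the length and GC correction, 5 with that correction and the replicate block together, and 6 with APPRIS lengths. Of all genes 809, 712 and 802 were lower in the same order. APPRIS lengths were used first and became an alternative chosen after seeing the data, when the longest transcript replaced them. KO iso against KO untreated, with 3 higher and 16 lower, gave 5 higher under TMM, in a fit of those 2 groups only, with edgeR, and with the correction and block together. Of all genes 2166, 2113, 2139 and 2075 were higher in the same order, against 2043 as reported. The same comparison gave 9 members higher after cyclic loess, 14 without mitochondrial genes, 6 after the correction and 7 with APPRIS lengths. Of all genes 2192, 2834, 2109 and 2116 were then higher. WT iso against KO untreated gave 4 lower at 0.01, where 807 of all genes were lower, against 1440 as reported. The scale without mitochondrial genes moved the median of all genes by 0.10 on the log2 scale between the knockout groups, from -0.02 to 0.08.

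With each library left out in turn, KO iso against WT iso gave 2 to 4 higher and 5 to 10 lower. KO iso against KO untreated gave 2 to 4 higher and 12 to 17 lower, and WT iso against KO untreated 4 to 6 higher and 4 to 9 lower. Over all genes the ranges were 534 to 979 higher and 802 to 1403 lower for KO iso against WT iso. They were 1667 to 2127 higher and 1875 to 2478 lower for KO iso against KO untreated. For WT iso against KO untreated they were 1037 to 1490 higher and 920 to 1597 lower. The difference in Eef1a2 share stayed between -8.13 and -3.34 percentage points for KO iso against WT iso, between -19.8 and -17.2 for KO iso against KO untreated and between -15.4 and -10.6 for WT iso against KO untreated. Eif4a2 reversed after cyclic loess, at 0.0048 against KO untreated.

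Same-numbered libraries of KO iso and WT iso correlated at 0.18, -0.04 and -0.14 in their deviations from the group means. Those of KO iso and KO untreated correlated at 0.12, -0.07 and -0.09, and those of WT iso and KO untreated at 0.07, 0.04 and 0.11. Deviations from a mean of 3 libraries depend on each other, so these values cannot decide whether the numbers pair the libraries. With the replicate number as a block, 3 members were higher and 9 lower for KO iso against WT iso, 3 higher and 15 lower for KO iso against KO untreated, and 4 higher and 8 lower for WT iso against KO untreated. Of all genes 1008 were higher and 1250 lower, 2012 and 2304, and 1369 and 1386, in the same order. Eif4ebp2, among the lower of the members described, rested on 135 to 263 reads per library.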
